A study of Mus musculus with 4 samples.

Results

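CpG-dense autosomal tiles with an intermediate methylation level in wild-type B cells numbered 303. A tile is a stretch of 1000 bases of the mouse genome build mm9, and it was called CpG-dense when the 4 libraries together measured 20 or more distinct CpGs in it. A tile entered the group when wild-type B cells had 50 or more summed reads in it and a pooled level of 20% to under 60% there, the pooled level being methylated read calls as a percentage of all read calls, summed over the CpGs of the tile. The 303 tiles were 3.27% of the 9260 CpG-dense tiles with that depth, out of 421973 autosomal tiles with a measured CpG. Of the other CpG-dense tiles, 8822 were under 20% and 135 were at 60% or more. The rule leaves out a short stretch of chromosome 17, which held 5 further tiles in the range.

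Methylation came from reduced representation bisulfite sequencing (RRBS), in which genomic DNA is cut with MspI and TaqI, size-selected and bisulfite-treated, so that mostly CpG-rich fragments are read. There were 4 libraries and 1 library per group, each made from DNA pooled from 6 to 9 mice of CBAxC57BL/6J background, and the ages and sexes of the mice are not given in the labels. The HSPC libraries came from Sca1+Lin- bone marrow cells, a fraction that holds hematopoietic stem and progenitor cells, and the B cell libraries came from B220+ cells of peripheral blood. Wild-type mice carried no transgene, while Sca1-BCL6Δ mice carried a Bcl6 cDNA driven by the Sca1 promoter, which is active in stem and progenitor cells and was meant to be removed by Cre once the B-lineage gene Cd79a was expressed. Sca1-BCL6Δ HSPCs, called BCL6Δ HSPCs below, thus carried the transgene, and Sca1-BCL6Δ B cells, called BCL6Δ B cells, came from cells designed to have deleted it. How many transgenic lines entered a pool is not given in the labels, and methylation data hold no expression markers with which to check the sorted cells. Because every group was 1 pool, no spread between mice could be measured, and all errors below cover counting error only. PCR copies were not removed, so reads are not strictly independent molecules.

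Methyl groups on CpG cytosines are copied to the new DNA strand at replication, so a methylation state is passed on through cell division. CpG-dense stretches, many of which are promoters, are mostly kept free of methylation in blood cells, whereas most of the remaining genome is methylated. Imprinting control regions are a known exception, with methylation on a single parental chromosome that is laid down in the germ line and kept in all tissues, and promoters of many germline genes are another, being methylated in somatic cells. A tile of intermediate level can hold fully methylated and unmethylated DNA molecules side by side, molecules on which only some CpGs are methylated, or a step from an unmethylated to a methylated stretch within the 1000 bases. Single reads show whether a stretch of a molecule is fully, partly or not methylated, although not which parental chromosome or which cell it came from. Read classes summed over a tile do not separate a step from molecules side by side. That takes a comparison of the tile's fragments.

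The promoters on which the results turn are printed first. Each is a RefSeq window of 300 bases on build GRCm38.p6, from 250 bases before to 50 bases after the gene's start, written along the gene's strand. Capitals mark the CpGs that the libraries measured. Windows were tied to mm9 tiles by the spacing of their CpGs, since no mm9 genome was used here. Plagl1, Igf2r, Commd1 and Gm15609 are shown because their tiles held separate fully methylated and unmethylated reads in wild-type B cells. Gm13205 is shown for the largest differences between libraries, Dazl for a methylated promoter edge in a mostly unmethylated tile, and Tcfl5 and Mir9-3hg for their many partly methylated reads.
Plagl1 promoter, GRCm38.p6 chr10:13090582-13090881, plus strand: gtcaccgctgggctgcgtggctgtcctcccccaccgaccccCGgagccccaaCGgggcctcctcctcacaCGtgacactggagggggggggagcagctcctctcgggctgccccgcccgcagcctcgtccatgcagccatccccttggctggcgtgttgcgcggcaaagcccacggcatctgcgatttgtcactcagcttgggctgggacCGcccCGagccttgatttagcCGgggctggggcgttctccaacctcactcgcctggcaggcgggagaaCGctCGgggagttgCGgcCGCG
Igf2r promoter, GRCm38.p6 chr17:12769657-12769956, minus strand: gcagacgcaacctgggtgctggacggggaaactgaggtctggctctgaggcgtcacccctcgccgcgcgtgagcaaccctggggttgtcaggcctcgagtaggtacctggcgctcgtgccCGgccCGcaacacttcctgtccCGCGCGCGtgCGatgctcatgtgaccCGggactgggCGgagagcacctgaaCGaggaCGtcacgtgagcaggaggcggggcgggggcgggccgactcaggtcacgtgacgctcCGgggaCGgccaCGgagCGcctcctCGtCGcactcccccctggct
Commd1 promoter, GRCm38.p6 chr11:22972817-22973116, minus strand: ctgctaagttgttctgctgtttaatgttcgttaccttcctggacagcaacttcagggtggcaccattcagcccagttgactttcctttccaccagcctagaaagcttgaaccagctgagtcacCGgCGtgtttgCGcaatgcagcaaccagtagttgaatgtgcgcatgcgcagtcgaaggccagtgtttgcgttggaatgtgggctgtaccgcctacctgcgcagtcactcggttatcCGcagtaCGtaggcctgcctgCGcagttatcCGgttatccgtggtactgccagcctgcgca
Gm15609 promoter, GRCm38.p6 chr15:89523701-89524000, minus strand: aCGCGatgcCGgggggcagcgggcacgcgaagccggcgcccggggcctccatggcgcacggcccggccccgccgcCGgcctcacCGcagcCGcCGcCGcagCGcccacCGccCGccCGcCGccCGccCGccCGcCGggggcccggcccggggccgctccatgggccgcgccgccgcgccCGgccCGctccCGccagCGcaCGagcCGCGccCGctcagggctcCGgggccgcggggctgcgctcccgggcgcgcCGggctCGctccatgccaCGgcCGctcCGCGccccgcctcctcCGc
Gm13205 promoter, GRCm38.p6 chr4:148952273-148952572, minus strand: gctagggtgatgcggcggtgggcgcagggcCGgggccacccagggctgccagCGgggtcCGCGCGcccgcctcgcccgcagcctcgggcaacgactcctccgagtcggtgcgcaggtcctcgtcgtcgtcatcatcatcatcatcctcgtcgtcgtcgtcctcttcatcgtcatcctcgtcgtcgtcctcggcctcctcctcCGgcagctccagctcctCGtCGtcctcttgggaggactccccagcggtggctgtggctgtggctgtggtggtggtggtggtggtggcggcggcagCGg
Dazl promoter, GRCm38.p6 chr17:50293571-50293870, minus strand: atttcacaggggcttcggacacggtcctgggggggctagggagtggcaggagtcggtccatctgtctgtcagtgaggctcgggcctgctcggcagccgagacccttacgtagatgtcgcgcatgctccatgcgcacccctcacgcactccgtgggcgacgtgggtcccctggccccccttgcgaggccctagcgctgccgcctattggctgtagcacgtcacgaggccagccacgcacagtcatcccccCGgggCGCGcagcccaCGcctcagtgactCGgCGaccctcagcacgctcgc
Tcfl5 promoter, GRCm38.p6 chr2:180642642-180642941, minus strand: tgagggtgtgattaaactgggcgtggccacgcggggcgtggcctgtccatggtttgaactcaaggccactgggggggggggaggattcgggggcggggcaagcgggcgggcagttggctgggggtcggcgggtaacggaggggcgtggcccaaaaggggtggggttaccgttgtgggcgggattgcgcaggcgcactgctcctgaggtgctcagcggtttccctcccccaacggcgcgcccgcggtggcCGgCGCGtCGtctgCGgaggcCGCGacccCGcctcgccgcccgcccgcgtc
Mir9-3hg promoter, GRCm38.p6 chr7:79515185-79515484, plus strand: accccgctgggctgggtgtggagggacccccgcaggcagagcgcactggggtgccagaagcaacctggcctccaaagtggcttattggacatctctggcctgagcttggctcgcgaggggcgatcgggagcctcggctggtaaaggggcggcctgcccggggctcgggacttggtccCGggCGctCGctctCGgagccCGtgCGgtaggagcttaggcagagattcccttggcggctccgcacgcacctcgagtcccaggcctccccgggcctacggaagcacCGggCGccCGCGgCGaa

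The tiles lay toward the lower end of the range that chose them. In wild-type B cells 137 of the 303 were under 25%, 198 were under 30%, and 52 were at 40% or more. The median level was 26.1% in wild-type B cells, 20.8% in BCL6Δ B cells, 23.9% in wild-type HSPCs and 21.1% in BCL6Δ HSPCs, over 303, 290, 299 and 279 tiles with 50 or more summed reads. The value for wild-type B cells is set by the rule and the other 3 are not, so their lower medians are given as a description. The same medians were 7.71%, 6.93%, 9.63% and 7.57% in the CpG-dense tiles under 20%, and 95.4%, 96.1%, 86.6% and 94.3% in those at 60% or more.

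**Figure D1:**
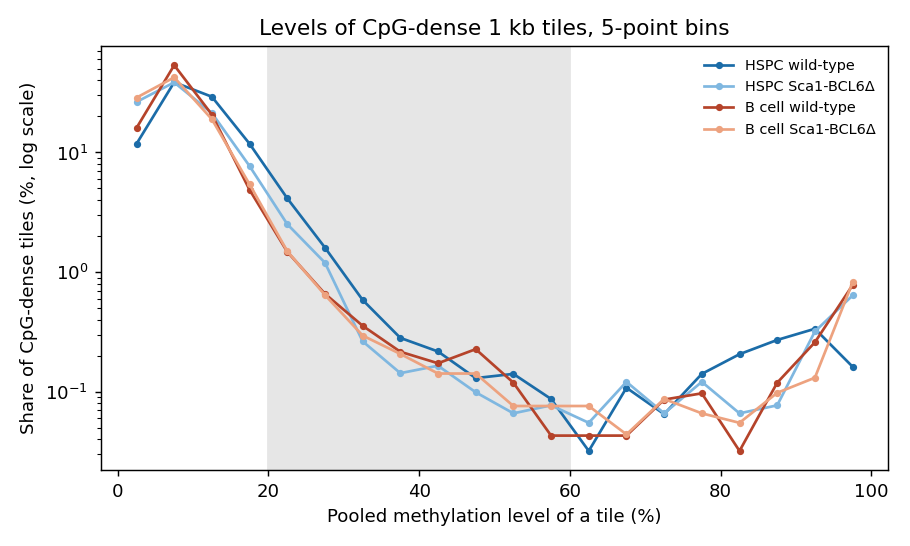
Share of CpG-dense tiles (y axis, percent, log scale) by pooled methylation level (x axis, percent, bins of 5 points) in the 4 libraries, with the range of 20 to 60% shaded. The counts were highest at the lower edge of the shaded range in every library, and in wild-type B cells 137 tiles lay at 20 to 25% and 4 at 55 to 60%.

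The other libraries placed many of these tiles outside the range. The level was again 20% to under 60% in 188 of 299 tiles in wild-type HSPCs, in 143 of 279 in BCL6Δ HSPCs and in 153 of 290 in BCL6Δ B cells. Most tiles outside it were below 20%, namely 107, 127 and 134 in the same order, and 4, 9 and 3 were at 60% or more. Over all CpG-dense tiles, 663 of 9232 (7.18%), 412 of 9097 (4.53%) and 282 of 9159 (3.08%) were in the range. CpG-dense tiles under 20% in wild-type B cells gave 460, 265 and 121 of these, so the other libraries also had intermediate tiles outside the group. Of 273 tiles of the group with 50 or more summed reads in all 4 libraries, 89 (32.6%) were in the range in every library. That share rose with the level in wild-type B cells, from 15 of 118 tiles at 20 to under 25% and 14 of 59 at 25 to under 30% to 26 of 49 at 30 to under 40% and 34 of 47 at 40 to under 60%. Tiles under 25% lie within 5 points of the lower threshold and can leave the range with a smaller difference, so this rise follows in part from the rule. The median range of a tile over the 4 libraries was 12.9 points.

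**Figure D2:**
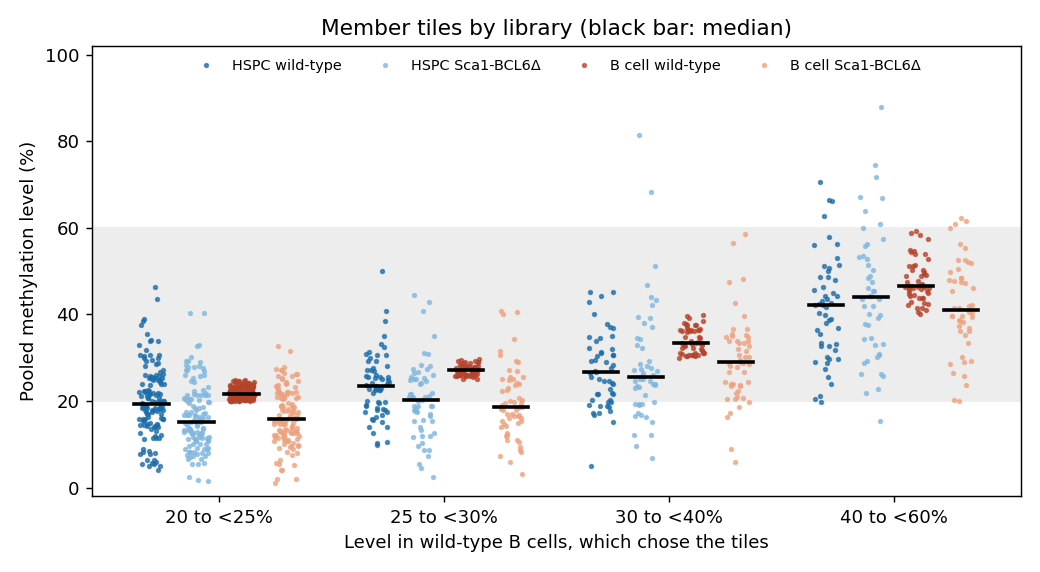
Pooled methylation level (y axis, percent) of each tile in each library, grouped by the level in wild-type B cells that chose it (x axis), where a point is a tile with 50 or more summed reads and a black bar is the median. In the group at 40 to under 60% the medians were 42.1%, 44.0%, 46.5% and 41.0% from left to right, while single tiles spread from under 20% to above 80%.

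Depth differed between the libraries. Median summed reads per tile were 170 in wild-type HSPCs, 119 in BCL6Δ HSPCs, 294 in B cells of wild-type mice and 143 in BCL6Δ B cells, and 4, 24, 0 and 13 of the 303 tiles had under 50. Levels correlated across the 273 tiles at Pearson r = 0.66 between both HSPC libraries, 0.69 between wild-type HSPCs and BCL6Δ B cells, and 0.72 between both BCL6Δ libraries. These points share their base composition and their low depth, and the coefficients are descriptions. The tiles held a median of 24 measured CpGs, against 30 in CpG-dense tiles under 20% and 23 in those at 60% or more. Chromosome 7 held the largest share of its CpG-dense tiles in the group, 32 of 605 (5.29%), and chromosome 3 the smallest, 6 of 405 (1.48%).

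A promoter window could be matched to 66 of the 303 tiles, or 21.8% (95% Wilson interval 17.5 to 26.8%). The share was 46.2% of the CpG-dense tiles under 20% (4077 of 8822) and 5.19% of those at 60% or more (7 of 135), so the intermediate tiles stood between the unmethylated and the methylated ones. It was 23.7% (47 of 198) in tiles under 30% and 18.1% (19 of 105) in tiles at 30% or more. The 9 tiles on chromosome 18 could not be assessed, and a match needed 6 or more measured CpGs in the window, so that an unmatched tile may still hold a promoter.

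Imprinted genes came first among the lists looked up. Of 22 imprinted genes listed for this work, 18 had a window and 6 of these were matched to CpG-dense tiles, of which 2, Plagl1 and Igf2r, were intermediate. Plagl1 encodes a zinc finger transcription factor expressed from the paternal copy, and its window overlaps that of Hymai, an imprinted noncoding RNA. The Plagl1 tile (mm9 chr10:12810001-12811000) was methylated at 45.2% (95% interval 30.4 to 58.9%, Wilson, on the number of reads starting in the tile) in wild-type HSPCs, 42.2% (28.4 to 56.7%) in BCL6Δ HSPCs, 39.6% (30.3 to 49.2%) in B cells of wild-type mice and 56.4% (42.2 to 70.3%) in BCL6Δ B cells. All 4 intervals overlapped. Igf2r encodes the receptor that clears the growth factor IGF2, and its tile (mm9 chr17:12962001-12963000) stood at 51.5%, 43.5%, 42.8% and 39.6% in the same order of libraries. The Igf2r intervals also overlapped, from 38.3 to 65.5% in wild-type HSPCs to 28.6 to 52.6% in BCL6Δ B cells. The other matched imprinted windows lay in tiles outside the range, with wild-type B cell levels of 9.43% at Grb10, 4.03% at Gnas, 7.04% at Zdbf2 and 97.8% at Mcts2.

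Intermediate tiles also lay in the neighbourhood of the unmethylated Gnas and Grb10 promoters. Gnas encodes the stimulatory G protein alpha subunit and sits in an imprinted cluster with several promoters. Tiles 44507, 29507 and 507 bases upstream of the matched Gnas start had 46.5%, 51.4% and 46.4% in wild-type B cells. The farthest of them ranged from 38.7 to 60.8% over the 4 libraries, the middle one from 48.6 to 51.8%, and the nearest from 39.8 to 46.4%. Grb10, an imprinted adaptor that dampens growth factor signalling, had a pair of adjoining intermediate tiles 10423 and 11423 bases downstream of its matched start. The tile at 10423 bases (mm9 chr11:11926001-11927000) stood at 56.0%, 66.9%, 51.2% and 59.8% in wild-type HSPCs, BCL6Δ HSPCs, wild-type B cells and BCL6Δ B cells. Its neighbour stood at 53.0%, 74.5%, 47.4% and 55.3%, so both were highest in BCL6Δ HSPCs, with intervals of 50.1 to 81.4% and 56.6 to 88.5% there. These overlapped the intervals of every other library, at the neighbour only narrowly for wild-type B cells.

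The tile of Commd1 (mm9 chr11:22872001-22873000) held levels close to each other, 48.0%, 46.2%, 44.6% and 48.3% in wild-type HSPCs, BCL6Δ HSPCs, wild-type B cells and BCL6Δ B cells. Commd1 takes part in copper handling and its gene encloses the imprinted Zrsr1, whose own window was matched to no tile. The tile of Gm15609, a predicted gene (mm9 chr15:89354001-89355000), stood at 57.9%, 45.5%, 54.8% and 62.2%, with intervals of 46.7 to 68.3% and 35.5 to 56.5% in wild-type and BCL6Δ HSPCs. The levels of Commd1 lay within 4 points of each other, and at Gm15609 the intervals of both HSPC libraries overlapped. Commd1 had only 12, 8, 27 and 9 reads of 4 or more CpGs in the same order of libraries, so its read classes rest on few reads.

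Germline genes were the next list. Of 5 germline genes listed for this work, 4 were matched, 2 of these lay in CpG-dense tiles and 1, Dazl, was intermediate, while the tile of Mael stood at 98.0% in wild-type B cells. Dazl encodes an RNA-binding protein of germ cells. Its tile (mm9 chr17:50432001-50433000) stood at 21.7%, 17.4%, 21.5% and 27.1% in wild-type HSPCs, BCL6Δ HSPCs, wild-type B cells and BCL6Δ B cells. The CpGs measured within the promoter window alone were at 90.9%, 100%, 97.1% and 91.7%, from 11, 6, 35 and 12 read calls. The window overlaps only the edge of the tile, and the whole tile had 258, 230, 470 and 314 read calls. The highly methylated edge thus gave a small part of the calls, and the level of the remainder was not computed.

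Other genes with known roles in germ cells were picked from the promoter match after their values were seen. Sox30, a testis transcription factor, stood at 29.6%, 40.2%, 45.0% and 40.3%, and its window alone was at 55.9%, 42.1%, 71.8% and 68.8%. The tile of Smc1b, a cohesin subunit of meiosis, and its neighbour Ribc2 stood at 26.4%, 34.4%, 38.1% and 24.4%. Tcfl5, a transcription factor of the testis, was the matched promoter of a pair of adjoining intermediate tiles (mm9 chr2:180376001-180378000). That pair had 22.5%, 20.9%, 26.8% and 27.7%, so its libraries lay within 7 points of each other. The CpGs measured in the Tcfl5 window alone were not even, at 14.3%, 70.4%, 62.5% and 90.5% from only 7, 27, 16 and 21 read calls. These genes were not compared with other genes by a test.

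Hox genes were the last list, and their intermediate tiles lay at the lower end. The list of 39 Hox genes, which encode the homeodomain factors of the body axis, had 22 genes with a window, 9 in CpG-dense tiles and 2, Hoxd10 and Hoxd12, in intermediate ones. The Hoxd10 tile stood at 22.9%, 12.5%, 27.8% and 16.8%, and the Hoxd12 tile at 26.9%, 17.6%, 26.9% and 16.9%, in wild-type HSPCs, BCL6Δ HSPCs, wild-type B cells and BCL6Δ B cells. In HSPCs the intervals of both genotypes overlapped at each tile, and the wild-type B cell values are those that chose the tiles. The CpGs measured in the Hoxd10 window alone were at 22.9%, 5.56%, 36.7% and 12.8%, from 35, 36, 79 and 47 read calls. Those in the Hoxd12 window, which lies partly outside its tile, were at 22.5%, 5.26%, 47.4% and 7.14%, from 40, 38, 78 and 28. Differences between libraries in these windows were not tested. Hoxa5 lay outside the range at 91.3% in wild-type B cells, and the remaining matched Hox promoters in CpG-dense tiles were at 5.22 to 17.9% there. Pou3f3, a neural transcription factor, stood at 22.6%, 27.4%, 28.8% and 30.7%, and Six4, a homeobox factor of muscle and sensory organs, at 22.0%, 11.3%, 23.0% and 10.8%.

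**Figure D3:**
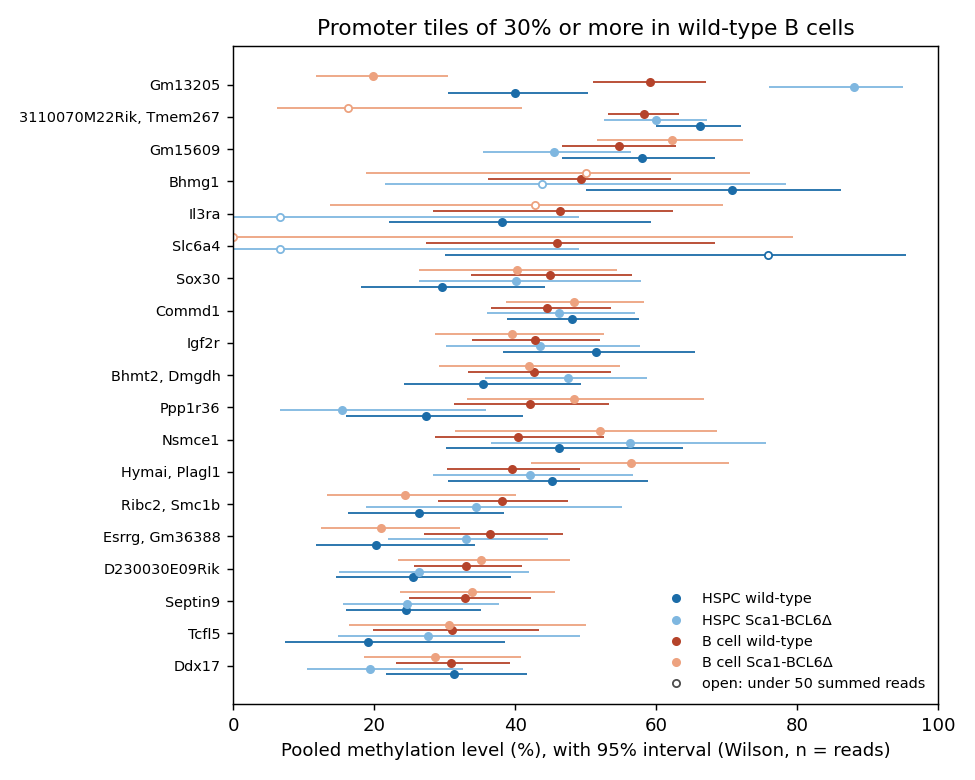
Pooled methylation level (x axis, percent) of the 19 promoter tiles at 30% or more in wild-type B cells, 1 row per tile and 1 point per library. Lines are 95% Wilson intervals on the number of reads and open points have under 50 summed reads; the 4 points of Commd1 lie close together while those of Gm13205 run from 19.9% to 88.0%.

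Single reads were classed as unmethylated, mixed or fully methylated where they carried 4 or more CpGs. In tiles with 20 or more such reads, the median shares of these classes were 60.6%, 25% and 11.1% in wild-type HSPCs (135 tiles) and 68.8%, 23.0% and 5.81% in BCL6Δ HSPCs (90 tiles). They were 57.3%, 29.1% and 10% in wild-type B cells (206 tiles) and 63.3%, 23.1% and 7.45% in BCL6Δ B cells (118 tiles). Unmethylated reads were thus the commonest class at the median, and fully methylated reads the rarest. For comparison, CpG-dense tiles under 20% had medians of 81.7%, 15.1% and 2.60% in wild-type B cells, and those at 60% or more had 0.00%, 13.0% and 86.4%.

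Tiles in which reads were all or none were searched for with thresholds chosen after the values were seen: 20% or more unmethylated reads, 20% or more fully methylated reads and under 30% mixed reads. In wild-type B cells 23 of 206 tiles (11.2%) met them, against 31 of 8526 CpG-dense tiles in all (0.36%), which include the 23, and 6 of the 8233 under 20%. A tile under 20% can hardly hold 20% fully methylated reads, so the range itself favours such tiles. Reads were pooled over the fragments of a tile, so a step within it can also meet these thresholds. Steps among the 23 tiles were not counted. Of the 23, 7 had a matched promoter, those of Plagl1 and Hymai, Igf2r, Commd1, Gm15609, Ddx17, Cdkl2 and the tile shared by Tmem267 and 3110070M22Rik. In the other libraries the reads of these 23 tiles were also all or none in 12 of 18 with enough reads in wild-type HSPCs, 7 of 10 in BCL6Δ HSPCs and 10 of 13 in BCL6Δ B cells. Over all CpG-dense tiles the thresholds were met by 106 of 7204 (1.47%), 60 of 5963 (1.01%) and 39 of 6687 (0.58%) in the same order. Intermediate tiles met them in 19 of 135, 8 of 90 and 14 of 118. Of the 23, 8 had enough reads in every library, and 6 of these met the thresholds in all 4. They were the tiles of Plagl1, Igf2r and Gm15609, the Grb10 tile at 10423 bases and the Gnas tiles at 44507 and 29507 bases. The distance of other tiles from listed genes was not compared with these.

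The Igf2r tile held 46 unmethylated, 15 mixed and 36 fully methylated reads in wild-type B cells, and 28, 1 and 19 in BCL6Δ B cells. In wild-type HSPCs it held 11, 9 and 18, and in BCL6Δ HSPCs 22, 3 and 16. Mixed reads were thus the smallest class in every library, from 2.08% in BCL6Δ B cells to 23.7% in wild-type HSPCs. At the Plagl1 tile the counts were 32, 19 and 24 in wild-type B cells, 16, 2 and 18 in BCL6Δ B cells, 19, 6 and 12 in wild-type HSPCs and 20, 5 and 16 in BCL6Δ HSPCs. Unmethylated and fully methylated reads each outnumbered mixed reads in all 4. The Gm15609 tile gave 34, 18 and 38 in wild-type B cells, 15, 12 and 24 in BCL6Δ B cells, 16, 9 and 25 in wild-type HSPCs and 27, 9 and 21 in BCL6Δ HSPCs.

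**Figure D4:**
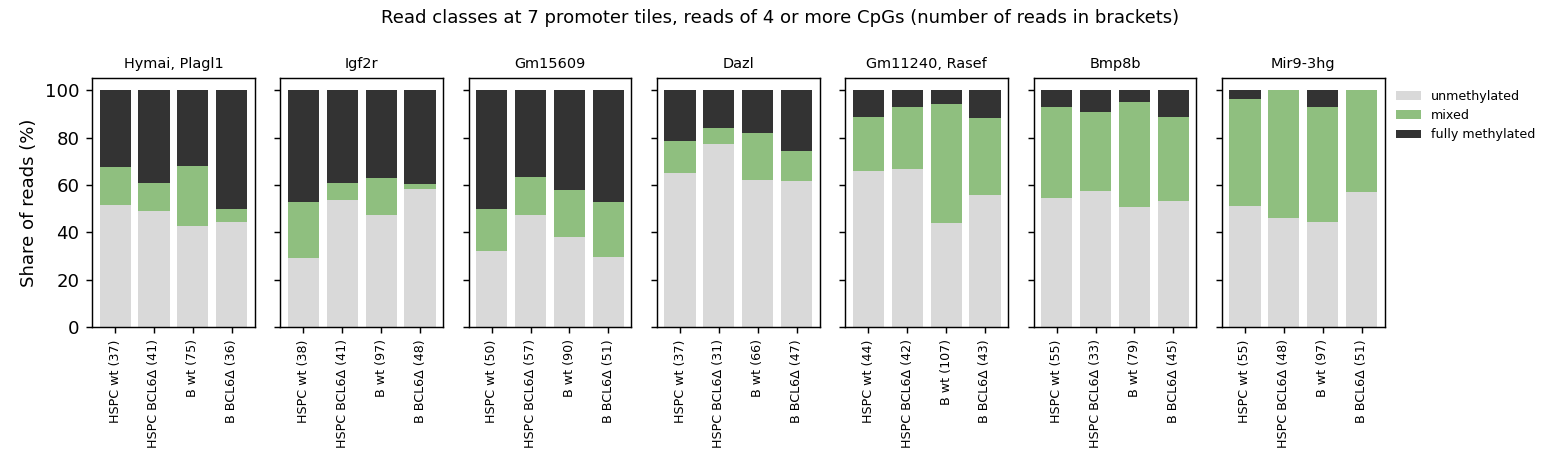
Share of unmethylated, mixed and fully methylated reads (y axis, percent of reads with 4 or more CpGs) in the 4 libraries at 7 promoter tiles, with the number of reads in brackets. Plagl1, Igf2r and Gm15609 have large unmethylated and fully methylated parts, Dazl is mostly unmethylated with a fully methylated part, and at Mir9-3hg mixed reads fill most of the part that is not unmethylated.

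The share of mixed reads varied widely between tiles. The order of tiles by mixed reads was taken over 33 tiles with 30 or more such reads in every library, a minimum lowered from 100 after no tile reached that. Their mixed share in wild-type B cells ran from 13.5 to 68.0%, with a median of 37.8%. The lowest were the tile mm9 chr4:136018001-136019000 at 13.5%, Igf2r at 15.5%, chr19:61302001-61303000 at 17.4%, Dazl at 19.7% and chr7:91031001-91032000 at 19.8%. The highest were chr4:44677001-44678000 at 68.0%, chr7:15208001-15209000 at 64.9%, chr7:17470001-17471000 at 55.6%, the tile of Rasef and Gm11240 at 50.5% and chr2:163165001-163166000 at 48.8%.

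Among those 33 tiles, the one with the highest mixed share in wild-type B cells also had a high share in BCL6Δ B cells. At chr4:44677001-44678000 the mixed share was 68.0% and 67.5% in wild-type and BCL6Δ B cells (51 of 75 and 27 of 40 reads), and 13.6% and 26.9% in wild-type and BCL6Δ HSPCs (9 of 66 and 14 of 52). Both B cell libraries were above both HSPC libraries, although the levels, 33.8%, 30.3%, 21.7% and 12.2%, lay closer. Fisher's exact test on mixed reads between BCL6Δ B cells and BCL6Δ HSPCs did not call this tile. Each library was 1 pool, and the tile was picked for its mixed share in wild-type B cells. Mir9-3hg, the host transcript of a neural microRNA, had 47 mixed and 7 fully methylated reads of 97 in wild-type B cells and no fully methylated read among 48 in BCL6Δ HSPCs and 51 in BCL6Δ B cells, which allows shares of up to 6.25% and 5.88%. Its level was 17.9%, 18.9%, 25.8% and 12.7% in wild-type HSPCs, BCL6Δ HSPCs, wild-type B cells and BCL6Δ B cells. At Rasef, a gene of the Rab GTPase family, mixed reads were 50.5% in wild-type B cells and 22.7 to 32.6% in the other libraries. The tile that holds the Tcfl5 promoter had 32 mixed reads of 35 in wild-type B cells, 9 of 12 in wild-type HSPCs, 15 of 18 in BCL6Δ HSPCs and 15 of 19 in BCL6Δ B cells. Its neighbour, which holds no matched promoter, had 44 of 63 in wild-type B cells.

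Neighbouring CpGs on a read matched each other more often than independent CpGs would. At fragment ends with enough reads, the share of mixed reads expected from independent CpGs at the end's own level had a median of 58.4% in wild-type B cells, and the observed share was 30.2%. The expected and observed medians were 52.2% and 25.9% in wild-type HSPCs, 50.6% and 20.5% in BCL6Δ HSPCs, and 47.3% and 22.7% in BCL6Δ B cells. The observed share was the lower one in 144 of 158 tiles, 50 of 56, 22 of 24 and 38 of 44. Reads were thus more uniform than independent CpGs would make them in most of these tiles and in all 4 libraries, and no test was made.

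**Figure D5:**
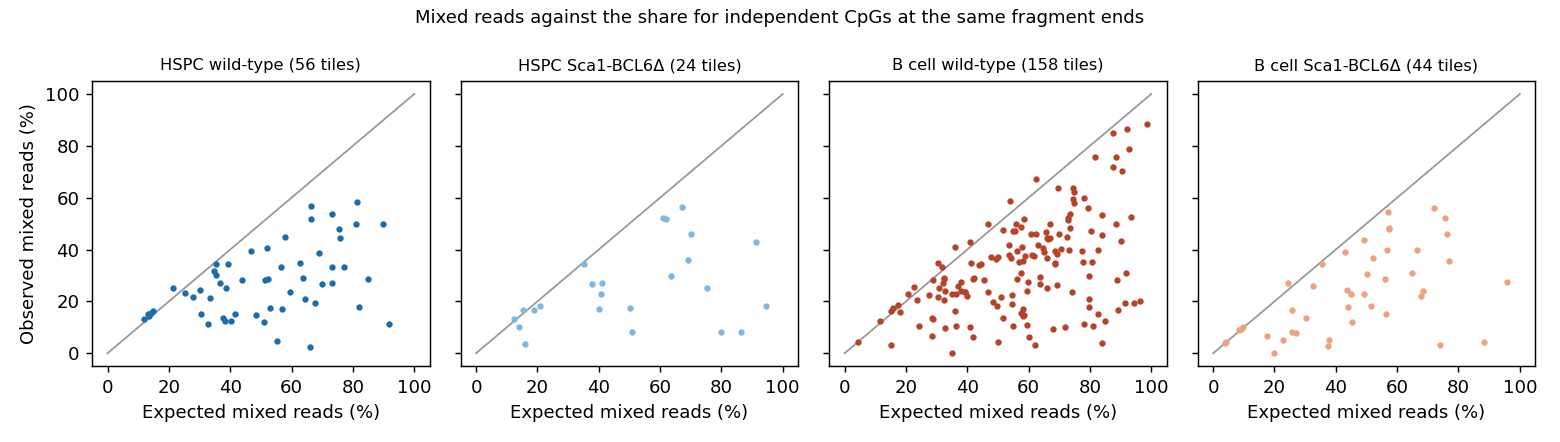
Observed share of mixed reads (y axis, percent) against the share expected from independent CpGs at the same fragment ends (x axis, percent), 1 panel per library and 1 point per tile, with the line of equal shares in grey. Most points lie below the line, 144 of 158 in wild-type B cells and 22 of 24 in BCL6Δ HSPCs.

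Within a tile the level also changed from fragment to fragment. In wild-type B cells 75 of 289 tiles with 2 or more fragment ends of 10 or more reads had an end at 20% or less and another at 80% or more, and 33 had all ends between 20% and 80%. Such steps were seen in 22 of 185 tiles in wild-type HSPCs, 10 of 112 in BCL6Δ HSPCs and 13 of 157 in BCL6Δ B cells. The median spread between the lowest and highest end was 44.6 points in wild-type B cells and 28.3, 16.8 and 17.6 points in the other 3, in libraries with fewer reads and thus fewer ends per tile. The part of depth in these counts was not tested. Over all CpG-dense tiles, steps were seen in 179 of 9049 in wild-type B cells (1.98%), and 42 (0.46%) had all ends between 20% and 80%. The shares with steps were 0.74%, 0.32% and 0.53% in wild-type HSPCs, BCL6Δ HSPCs and BCL6Δ B cells. A tile with a low and a high end tends to average into the range, so the rule itself favours steps.

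Differences by genotype in HSPCs were tested over all autosomal tiles, since neither HSPC library chose the tiles. The Cochran-Mantel-Haenszel test over single CpGs called 3 of 11162 tiles (0.0269%) at an adjusted p under 0.05 and 20 or more points, and 0 of 130 intermediate tiles it could test. At an unadjusted p under 0.05 there were 5 of the 130 (3.85%) and 3.42% of all tiles tested, a share near the background. The same test between BCL6Δ B cells and BCL6Δ HSPCs called 2 of 11052 tiles (0.0181%) and 0 of 135 intermediate tiles, with 2 of the 135 and 1.47% of all at an unadjusted p under 0.05. The smallest p among intermediate tiles belonged in HSPCs to chr17:47809001-47810000, which was at 36.9% in wild-type and 23.5% in BCL6Δ HSPCs and was far from passing the adjusted threshold. Both comparisons share the BCL6Δ HSPC library, and that tile was at 36.2% and 36.5% in wild-type and BCL6Δ B cells.

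The share of mixed reads gave no called tile in the group either. Fisher's exact test on mixed against uniform reads called 6 of 6349 tiles between genotypes in HSPCs (0.0945%) and 0 of 77 intermediate ones, of which 3 (3.90%) had an unadjusted p under 0.05, against 733 (11.5%) of all tiles. Between BCL6Δ B cells and HSPCs it called 0 of 6291 tiles (0.0%) and 0 of 77, with 7 of the 77 (9.09%) and 234 of all tiles (3.72%) at an unadjusted p under 0.05. The members' share was thus below that of all tiles in the first comparison and above it in the second, from 3 and 7 tiles. The Cochran-Mantel-Haenszel and mixed-read tests reached 130 or fewer of the 303 tiles in HSPCs, so the depth left most of the group untested.

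One tile was called when each read was counted once, as mostly methylated or not, an analysis that reached 269 intermediate tiles in HSPCs. It holds the promoter of Gm13205, a predicted gene (mm9 chr4:148326001-148327000), with levels of 39.9% (95% interval 30.5 to 50.3%) in wild-type HSPCs, 88.0% (76.0 to 95.1%) in BCL6Δ HSPCs, 59.2% (51.0 to 67.1%) in B cells of wild-type mice and 19.9% (11.7 to 30.4%) in BCL6Δ B cells. None of the 4 intervals overlapped, but some nearly met, with ends at 30.4 and 30.5% and at 50.3 and 51.0%. The order of genotypes was opposite in HSPCs and B cells, where the wild-type value is the one that chose the tile. Mostly methylated reads were 38 of 44 in BCL6Δ HSPCs and 34 of 90 in wild-type HSPCs (Fisher's exact test, Benjamini-Hochberg adjusted p = 0.000101), where 129 of 22728 tiles (0.568%) were called. They were 10 of 67 in BCL6Δ B cells (Fisher's exact test, adjusted p = 9.17e-11 against BCL6Δ HSPCs), where 54 of 21621 tiles (0.25%) were called. Intermediate tiles called were 1 of 269 (0.37%) in the first comparison and 1 of 265 (0.38%) in the second. This test put 11.5% of intermediate and 13.6% of all tiles at an unadjusted p under 0.05 between HSPC genotypes. Between the BCL6Δ libraries the shares were 5.66% and 6.33%. The window alone was at 64.1%, 100%, 73.3% and 11.1% in wild-type HSPCs, BCL6Δ HSPCs, wild-type B cells and BCL6Δ B cells, so the promoter printed above followed the tile. With single CpGs of 10 or more reads the tile could not be tested, and with CpGs of 5 or more reads it was called in both comparisons.

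By size alone, 9 of 279 intermediate tiles were higher by 20 or more points in BCL6Δ than in wild-type HSPCs (2.05% of all tiles with that depth and 0.341% of CpG-dense ones) and 7 were lower (1.59% and 0.583%). Between BCL6Δ HSPCs and BCL6Δ B cells, 4 of 273 were higher in B cells (0.845% and 0.155%) and 9 were lower (1.22% and 0.53%). A CpG-dense tile near 0% cannot fall by 20 points, so these shares of all CpG-dense tiles are no like-for-like background. The largest fall in BCL6Δ HSPCs was at chr12:55169001-55170000, from 40.9% (28.7 to 54.0%) in wild-type HSPCs to 8.79% (2.22 to 25%), with 25.6% in wild-type and 8.16% in BCL6Δ B cells. The next was at chr9:82723001-82724000, from 34.0% (24.2 to 44.9%) to 2.42% (0.45 to 13.2%), with 22.2% and 9.89% in the B cells. Neither was called by a test. The wild-type B cell values chose the tiles, so their being above BCL6Δ B cells is no second sign of a difference.

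The tiles named here as much higher in BCL6Δ HSPCs had smaller or opposite differences in B cells. They were picked for their large HSPC differences, some from few reads, so smaller differences elsewhere can follow from that choice. The rule also bounds their level in wild-type B cells. The B cell values are therefore given as a description and do not decide whether the HSPC differences carry over to B cells. At chr17:88145001-88146000 the level was 18.8% (37 reads) in wild-type HSPCs and 68.3% (15 reads) in BCL6Δ HSPCs, and 35.9% and 28.8% in wild-type and BCL6Δ B cells. At chr12:110271001-110272000 it was 44.3% and 81.3% in HSPCs and 39.9% and 47.5% in B cells. The promoter tile of Ace, which encodes the angiotensin-converting enzyme, was at 8.95% and 33.0% in HSPCs and at 21.1% and 13.6% in B cells, with 26 reads in BCL6Δ HSPCs. Toward BCL6Δ B cells the largest rise was at chr11:58773001-58774000, from 6.90% (23 reads) in BCL6Δ HSPCs to 58.7% (20 reads), with 21.7% in wild-type HSPCs and 30.0% in wild-type B cells. Ppp1r36, which encodes a phosphatase regulatory subunit, followed with 15.4% in BCL6Δ HSPCs and 48.4% in BCL6Δ B cells, and stood at 27.4% and 42.1% in the wild-type libraries. A tile 89 bases from the matched start of Aff3, a nuclear protein of lymphoid cells, went from 21.9% to 47.4%, and from 30.2% in wild-type HSPCs to 54.5% in wild-type B cells. The differences at Ppp1r36 and Aff3 thus had the same direction in both genotypes, of which the wild-type one rests on the library that chose the tiles.

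The tile shared by Tmem267 and 3110070M22Rik showed how coverage can differ with the level. It stood at 66.2%, 59.9% and 58.3% in wild-type HSPCs, BCL6Δ HSPCs and wild-type B cells, from 882, 699 and 1457 summed reads, and at 16.3% in BCL6Δ B cells from 49. The library with the low level was thus also the one with few reads. The part of coverage in that difference was not tested.

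At the lower threshold the 3 tiles on either side had nearly the same level in the library that chose them. Those just inside, at 20% in wild-type B cells, had 9.09 to 24.5% in BCL6Δ B cells and 14.3 to 21.1% in wild-type HSPCs, and those just outside, at 19.9%, had 4.31 to 9.01% and 8.94 to 21.2%. At the upper threshold the tiles just inside had 58.3 to 59.2% in wild-type B cells and 16.3 to 61.7% in BCL6Δ B cells, and those just outside had 61.9 to 62.9% and 48.2 to 74.3%. Adjoining intermediate tiles formed 5 runs of 2 tiles. Besides those at Tcfl5 and Grb10, a run at mm9 chr7:150645001-150647000 was at 37.5%, 35.6%, 38% and 41.2%, one at chr17:34808001-34810000 at 42.8%, 40.7%, 34.3% and 30.8%, and one at chr2:119569001-119571000 at 33.5%, 27.1%, 27.0% and 23.0%. The chromosome 7 run, which lay 41429 bases or more from the matched start of the imprinted gene Phlda2, varied least.

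A pair of short motifs was counted in the matched windows, on both strands. TGCCGC, the core bound by the imprint-maintaining factor ZFP57 when it is methylated, was in 16 of 81 windows of intermediate tiles (19.8%), in 28.4% of windows of all matched CpG-dense tiles and in 11.6% of all windows. CACGTG, an E-box, was in 14.8%, 10.4% and 7.15%. Among the printed promoters TGCCGC occurs in those of Plagl1, Gm13205 and Dazl, and CACGTG in those of Plagl1 and Igf2r. These counts describe letters in windows of 300 bases.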

How the data were processed

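The authors deposited, per library, counts of methylated and total reads for each CpG, and a table of single reads with the percent of CpGs methylated and the count of CpGs in the read. The deposited per-mille scores, a rounded copy of these percentages per the file headers, were not used. Per the deposited methods text, reads were aligned with an in-house pipeline, whose version is not given in the sources used here, to the ends of predicted fragments and kept when the next best place had 2 or more further mismatches. The build was mm9, per the submitters' processing notes. Reads with several equally good places were therefore left out, and no removal of PCR copies is described.

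Pooled levels were computed per tile, with Wilson 95% intervals on reads. Autosomal CpGs had a mean coverage of 7.51 reads in wild-type HSPCs, 5.5 in BCL6Δ HSPCs, 11.0 in B cells of wild-type mice and 6.5 in BCL6Δ B cells, and summed CpG calls equalled those of the read table in all 4 libraries. The Cochran-Mantel-Haenszel test used CpGs of 10 or more reads in both libraries, 3 or more per tile, thinned to over 50 bases apart. Fisher's exact test used 20 or more reads in both libraries. Both tests were two-sided, with Benjamini-Hochberg adjustment over all autosomal tiles tested, and were tried on simulated data. CpGs and reads were drawn there as independent, unlike these data, so that trial does not measure error rates here. The tests compare libraries, not conditions. Comparisons with wild-type B cells, which chose the tiles, got no test. Promoter windows (RefSeq, GRCm38.p6) were matched where all measured CpGs of the window fell on its CG letters, with 6 or more CpGs. The position difference also had to be shared, within 100 bases, with 2 or more other tiles within 10 Mb. Of 71 intermediate tiles with any match, 66 kept a match under this condition. No coordinates were converted.

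The tiles and gene lists were chosen with earlier results of these data known. Tiles named in the text are those with the largest level differences (up to 5 a direction), the lowest and highest mixed shares, the runs of adjoining tiles, matched members of the lists, the tiles at each threshold and any called tile; other promoter tiles were picked for known gene roles after values were seen. Analyses used Python 3.11.15, numpy 2.4.6, pandas 2.3.3, scipy 1.17.1 and matplotlib 3.10.9.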

Additional observations from a re-analysis of the deposited data

How the results depend on the processing

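Of 68 values recomputed under alternatives, 43 stayed within 1.5 times the count or within the median's 95% interval and 25 moved. The Cochran-Mantel-Haenszel test between HSPC genotypes called 3 tiles, against 5 with CpGs of 5 or more reads, 0 with 5 or more CpGs per tile, 0 without the CpGs of highest coverage and 8 at 10 or more points. Between BCL6Δ B cells and HSPCs it called 2, against 14, 1 and 0 under the first 3 of these. Another test, Fisher's exact test with 1 count per read, reached more tiles and called 129 of 22728 in the first comparison and 54 of 21621 in the second, so the test, the counting unit and the tiles tested all changed together. Intermediate tiles called were 0 in both comparisons, and 1, the Gm13205 tile, with CpGs of 5 or more reads and with Fisher's exact test on reads in each. Mixed reads between HSPC genotypes gave 6 calls, against 2 with reads of 3 or more CpGs and 0 with reads of 5 or more. Narrowing the range to 30 to 50% left 90 tiles and moved the median levels to 30.6% in wild-type HSPCs, 30.8% in BCL6Δ HSPCs, 37.5% in B cells of wild-type mice and 33.3% in BCL6Δ B cells, since lower tiles dropped out. Choosing tiles in BCL6Δ B cells, an alternative added after seeing the data, gave 283 tiles, of which 153 were shared (50.5% of the 303 and 54.1% of the 283). The medians of those 283 were 22.2% in wild-type B cells and 25.2% in BCL6Δ B cells, so the order of the B cell libraries turned with the library that chose the tiles. The median mixed share became 28.6% in wild-type HSPCs and 27.0% in BCL6Δ B cells with reads of 5 or more CpGs, and 29.4% in wild-type HSPCs and 36.4% in wild-type B cells with 50 or more reads per tile. Where no reason is given, the cause was not tested. No paired analysis was possible because each group was 1 pooled library, and no library could be left out. Leaving out the excluded stretch of chromosome 17 from the tests, also added after seeing the data, moved no count beyond 1.5 times.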
